A study of Mus musculus with 12 samples.

Results

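The 9 genes described here are Dusp1, Dusp4, Dusp5, Dusp6, Spry1, Spry2, Spry4, Spred1 and Spred2, out of 55413 genes annotated in GENCODE M21 on GRCm38. They are a named list of feedback inhibitors of the MAPK/ERK pathway, chosen by name with earlier results of these data known. The values they were selected on are the H4K12ac peaks within 2 kb of each transcription start site (TSS), over the gene body and in flanks of 50 kb, read by genotype, so differences between the genotypes at these genes are a description and carry no test. Histone H4 acetylated at lysine 12 (H4K12ac) was immunoprecipitated from neuronal nuclei that FACS had sorted out of whole hippocampus, and sequenced, with 5 libraries from Tip60 cKO and 5 from control mice. The labels give C57BL/6J males of 3 months for all of them and state no time after tamoxifen, whereas the study's methods name a C57BL/6 N background and both sexes for its animals in general. Tip60 cKO mice carried 2 floxed alleles of Tip60 (gene symbol Kat5) and the tamoxifen-inducible CaMKCreERT2 driver, whereas control mice carried the same floxed alleles without the driver, and both received tamoxifen. The driver acts in excitatory neurons of the forebrain, while the sort took neuronal nuclei of every kind, so a lower signal in every nucleus and a loss in only some of them cannot be told apart. The input chromatin of all mice of a genotype was pooled into 1 library.

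Growth factor receptors and synaptic activity switch on the GTPase RAS and, through it, the kinases RAF, MEK and ERK in turn. Active ERK induces its own inhibitors, and the 9 genes belong to this early feedback. Dusp1, Dusp4, Dusp5 and Dusp6 encode dual-specificity phosphatases, which remove both phosphates from the activation loop of MAP kinases. DUSP1 and DUSP4 work in the nucleus on ERK, JNK and p38, DUSP5 works in the nucleus and DUSP6 in the cytoplasm, the last pair mainly on ERK. Sprouty proteins (Spry1, Spry2, Spry4) dampen signalling between receptor tyrosine kinases and RAF, and the related Spred proteins bring neurofibromin to the membrane, where it turns RAS off. H4K12ac is a mark of open chromatin around active promoters, and TIP60 is among the enzymes that place it.

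The sequences at the start sites give the setting of the peaks. RefSeq promoters on GRCm38.p6, from 250 bases before to 50 after the start, were matched for 7 of the 9 genes, without Dusp4 and Spry4. Capitals mark every match, on either strand, to the motifs CRE (TGACGTCA), its half-site TGACG, the CArG box, ETS (CCGGAAGT), AP-1 (TGANTCA), SP1 (GGGCGG), the E-box with its palindrome CACGTG and the TATA box, searched as TATAAA. The CRE contains its own half-site on both strands. Dusp1 (chr17:26508423-26508722, minus strand) and Dusp5 (chr19:53528895-53529194, plus strand) are shown for their motifs, and Spry2 (chr14:105896770-105897069, minus strand) and Spred1 (chr2:117120821-117121120, plus strand) because their start sites show large differences of peak coverage below.
Dusp1: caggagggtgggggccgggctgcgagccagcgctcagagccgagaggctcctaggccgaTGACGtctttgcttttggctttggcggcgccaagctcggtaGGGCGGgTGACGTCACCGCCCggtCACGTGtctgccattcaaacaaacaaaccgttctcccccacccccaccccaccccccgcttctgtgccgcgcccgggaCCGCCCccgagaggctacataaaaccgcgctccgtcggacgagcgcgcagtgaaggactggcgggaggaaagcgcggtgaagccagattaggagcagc
Dusp5: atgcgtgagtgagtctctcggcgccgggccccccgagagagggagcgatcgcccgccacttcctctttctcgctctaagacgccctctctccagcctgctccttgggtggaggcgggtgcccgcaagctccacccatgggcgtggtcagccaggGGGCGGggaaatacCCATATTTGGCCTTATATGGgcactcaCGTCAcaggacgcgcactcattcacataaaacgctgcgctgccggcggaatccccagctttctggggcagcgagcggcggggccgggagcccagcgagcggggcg
Spry2: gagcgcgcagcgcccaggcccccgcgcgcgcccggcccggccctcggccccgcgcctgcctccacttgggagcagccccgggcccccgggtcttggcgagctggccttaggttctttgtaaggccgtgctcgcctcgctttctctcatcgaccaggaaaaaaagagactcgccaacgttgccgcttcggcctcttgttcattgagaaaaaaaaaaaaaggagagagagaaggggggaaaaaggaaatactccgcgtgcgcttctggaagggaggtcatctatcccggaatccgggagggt
Spred1: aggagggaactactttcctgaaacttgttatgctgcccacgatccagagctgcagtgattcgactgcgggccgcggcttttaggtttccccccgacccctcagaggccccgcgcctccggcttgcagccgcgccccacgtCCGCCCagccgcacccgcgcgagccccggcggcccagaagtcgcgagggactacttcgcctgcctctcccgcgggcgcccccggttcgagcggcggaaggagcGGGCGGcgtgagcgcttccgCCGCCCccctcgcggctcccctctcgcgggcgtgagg

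The Dusp1 promoter held a full CRE from −143 to −136 bases relative to the RefSeq start, which 1.79% of 32851 promoters hold, a separate half-site upstream of it, and an E-box (7.15% of promoters). The Dusp5 promoter held a pair of adjoining CArG boxes from −82 to −63 bases relative to the RefSeq start, a motif of 1.63% of promoters. A CRE half-site was found in 3 of the 7 promoters (Dusp1, Dusp5 and Spred2) and in 20.8% of all promoters. SP1 matched in 5 of 7 against 35.7% of all promoters. The ETS, AP-1 and TATA letters were in none of the 7, and in 3.89%, 7.81% and 13.6% of all promoters. Their G+C content was between 57% for Spred2 and 72.3% for Spred1, above the median of 52.7% over all promoters.

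Further stretches of 300 bases are shown for peaks that lie away from a start. Both are centred on the median summit of a consensus region, that is, of merged peaks found in at least 2 lists. The Dusp6 stretch (chr10:99261453-99261752, plus strand, GRCm38.p6) carries the strongest Dusp6 peak, at −1628 bases from the start. The Dusp4 stretch (chr8:34814141-34814440, plus strand) lies in the intron, 6994 bases downstream of the start, where all 5 control lists but 1 Tip60 cKO list held a peak. No annotated exon overlaps either.
Dusp6 upstream peak: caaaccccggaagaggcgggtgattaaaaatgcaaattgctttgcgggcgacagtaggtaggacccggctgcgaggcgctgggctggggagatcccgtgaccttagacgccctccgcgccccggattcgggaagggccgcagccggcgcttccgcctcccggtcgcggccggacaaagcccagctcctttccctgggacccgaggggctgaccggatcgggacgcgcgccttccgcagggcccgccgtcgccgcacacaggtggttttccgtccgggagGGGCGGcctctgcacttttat
Dusp4 intronic peak: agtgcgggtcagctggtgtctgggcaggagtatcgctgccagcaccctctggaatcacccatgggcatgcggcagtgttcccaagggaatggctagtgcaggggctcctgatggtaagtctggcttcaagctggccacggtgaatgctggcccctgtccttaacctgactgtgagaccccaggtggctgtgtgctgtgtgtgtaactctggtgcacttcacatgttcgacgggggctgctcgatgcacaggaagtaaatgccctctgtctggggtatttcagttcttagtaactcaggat
The motif search found 1 SP1 match in the Dusp6 stretch and none of the 8 motifs in the Dusp4 stretch. Among 144701 stretches made in the same way from all consensus regions, 12.9% held the SP1 letters, 0.317% the CRE, 13.3% its half-site, 1.2% the CArG box, 0.504% the ETS motif, 8.11% AP-1, 5.06% the E-box and 8.15% TATA.

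The caller read 22864189 to 37923809 tags in each library, and the lists held between 64245 peaks (Tip60 cKO replicate 5) and 136409 peaks (control replicate 5). That Tip60 cKO library was the shallowest and its list the shortest. Libraries 1 to 3 of each genotype were run in lane 7 and libraries 4 and 5 in lane 8, as read from the deposited file names. Of 7 neuronal marker genes, 6 had a TSS peak in all 10 lists, with Gad1 as the exception at none. None of the 9 markers of oligodendrocytes, microglia and endothelium had a TSS peak in more than 1 list, and of 3 astrocyte markers Gfap alone had peaks, in 9 lists. At the start of Kat5 the TSS rank score was 94.8 ± 5.1 in Tip60 cKO against 97.6 ± 2.1 in control (SD, n = 5). The Kat5 peaks were not placed relative to the floxed segment, so this does not check the deletion.

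The levels of the 9 genes were compared first as ranks within each library. Such ranks do not show a change that most genes share. The TSS rank score is the percent rank, among the TSS windows of all annotated genes, of the strongest peak by fold enrichment that overlaps the 2 kb on either side of the start. It is 0 where a library lists no peak. A peak counts even if its summit lies beyond the window, as at Dusp4 in control replicate 3 (2416 bases) and at Spry2 in control replicate 1 (−2055 bases). In control mice the score ran from 98.9 ± 0.44 at Spred2 through Spred1 (96.3 ± 2.1), Dusp6 (96.2 ± 1.89), Dusp4 (95.3 ± 1.4), Spry2 (94.3 ± 1.66), Dusp1 (92.8 ± 4.58), Dusp5 (88.5 ± 2.77) and Spry1 (82 ± 5.84) down to Spry4 (59.9 ± 33.6, SD, n = 5 each). The ranges of 1 SD around the means overlapped between neighbours in this order, except between Spred2 and Spred1. For comparison, the median over the 21672 genes with a TSS peak in at least 2 lists was 80.7. Thus 8 of the 9 genes lay above this median in control mice, and all of these 8 had a TSS peak in all 10 lists.

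**Figure D1:**
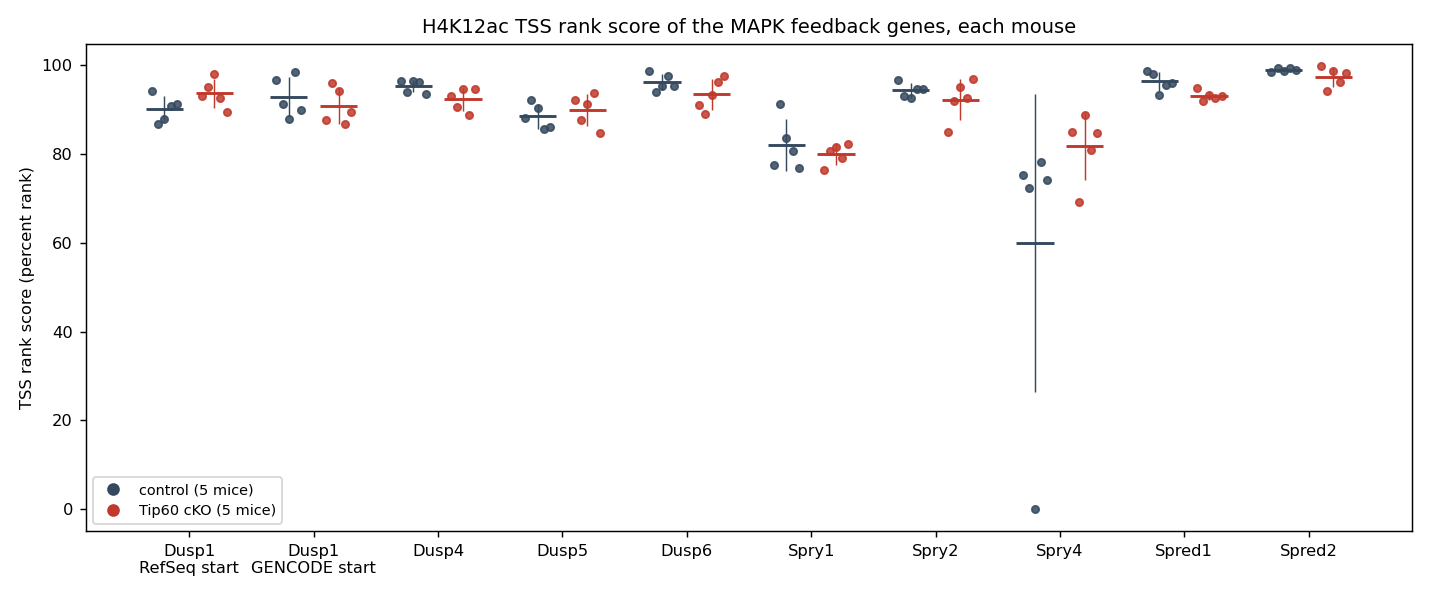
TSS rank score (percent rank, vertical axis) of each gene in 5 control (dark) and 5 Tip60 cKO mice (red). Points are mice, horizontal bars means and vertical bars 1 SD. The genotypes overlap at every gene, and the control mouse without a Spry4 peak sits at 0.

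The genotypes overlapped at all 9 genes in this score. The mean was lower in Tip60 cKO at 7 genes and higher at Dusp5 and Spry4, with a median difference of −2.03 over the 9 genes against −0.691 over all genes tested, of which 55.6% were lower. With the RefSeq start of Dusp1 (below) it was lower at 6 genes, with a median of −2.02. By limma on all 21672 genes, 34 genes (0.157%) were called lower and 17 (0.0784%) higher in Tip60 cKO at an adjusted p below 0.05, and 0 of the 9 genes were among them. None of the 9 had an unadjusted p below 0.05 either, against 11.8% of all genes tested. On the log2 fold enrichment scale limma called 0 of the 9 as well, and 6 of them had an unadjusted p below 0.05 against 21.7% of all genes. Genotypes that did not overlap were found at 1.62% of genes in the lower and 1.93% in the higher direction. As the genes were read by genotype, nothing is drawn from these counts. The median score of the 9 genes in each library was 92.1 in Tip60 cKO against 94.3 in control mice on average, a difference of −2.13 (−2.39 within lane 7 and −1.74 within lane 8).

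The strength of the same peaks was then read as fold enrichment over the input of the same genotype, the value that the authors' peak caller gave. Fold enrichment at the TSS was lower in all 5 Tip60 cKO than in all 5 control mice at 4 of the 9 genes, Dusp4, Dusp6, Spry2 and Spred1. This pattern held at 5.43% of all genes in the lower and at 0.632% in the higher direction. The mean was lower at 8 of the 9 genes, with a median difference of −1.38, and at 72.5% of all genes, with a median of −0.645. Fold enrichment depends on the input, and the local input background under TSS peaks was 1.07 to 1.1 times the genome-wide level in the median of the control libraries and 1 to 1.01 times in Tip60 cKO libraries. Pileup in fragments per 1000000 tags is not divided by the input, although the input decides which peaks are listed. It was lower in mean at 8 of the 9 genes, by 10.5% (Dusp5) to 26.5% (Spred1). It was lower at 83.4% of all genes, and the median gene was 18.5% lower. The fragment length that the caller estimated was 179 to 213 bases in Tip60 cKO against 199 to 216 bases in control libraries. Its part in the pileup was not tested. In pileup the genotypes did not overlap at Spred1 alone among the 9, and at 7.43% of all genes in the lower and 0.106% in the higher direction.

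**Figure D2:**
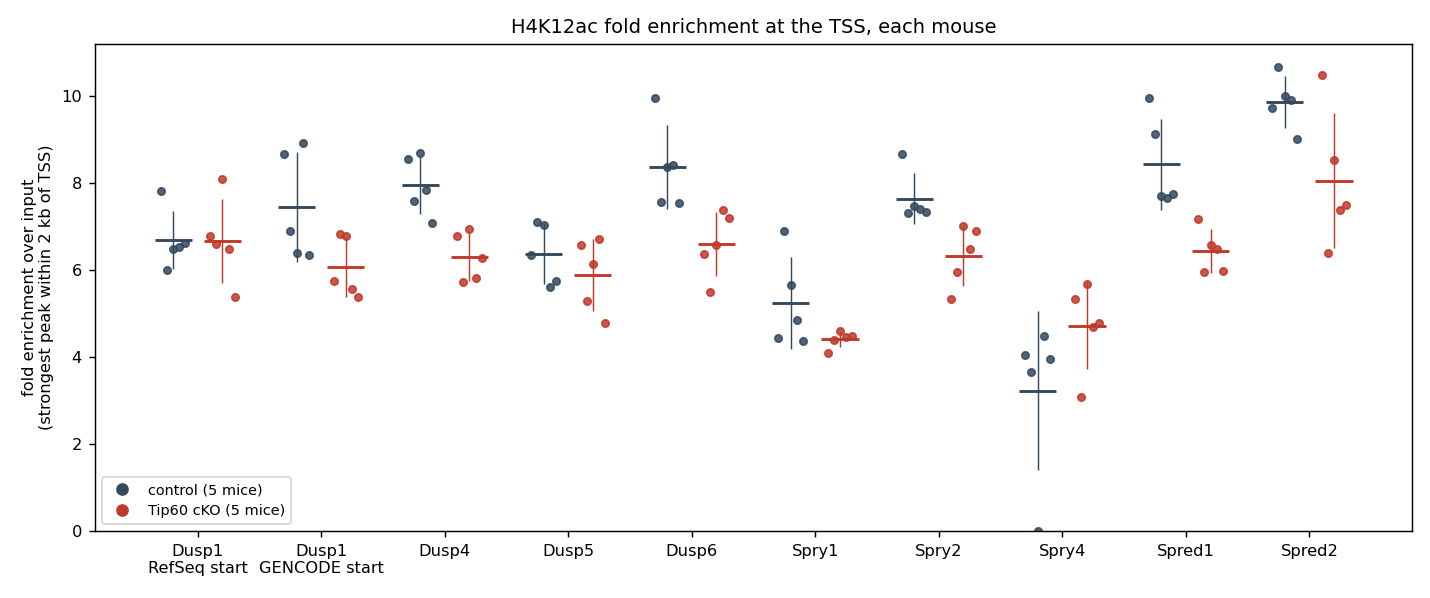
Fold enrichment over input (vertical axis, linear, from 0) of the strongest peak overlapping the 2 kb on either side of each start in 5 control (dark) and 5 Tip60 cKO mice (red), with means and SD. The 2 genotypes are separate at Dusp4, Dusp6, Spry2 and Spred1, and Spry4 has a higher mean in Tip60 cKO, with the control mouse without a peak at 0.

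Among the nuclear phosphatases, Dusp4 differed between the genotypes in the strength and in the shape of its peak. The gene spans chr8:34807297-34819894 on the plus strand. Its TSS fold enrichment in Tip60 cKO replicates 1 to 5 was 6.78, 5.73, 6.95, 5.82 and 6.3. In control replicates 1 to 5 it was 8.56, 7.6, 8.71, 7.85 and 7.09, so that every control mouse was above every Tip60 cKO mouse. The rank score overlapped, at 92.3 ± 2.62 in Tip60 cKO against 95.3 ± 1.4 in control mice (SD, n = 5), and the difference of −2.98 was −2.85 within lane 7 and −3.18 within lane 8.

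The shape of the Dusp4 peak differed as well. In each of the 5 control mice 1 unbroken peak of 3000 to 3123 bases ran from 56 to 85 bases after the start to 3056 to 3207 bases. In the Tip60 cKO mice the same stretch was broken into 2 or 3 peaks, the longest of 573 to 2039 bases. The region (chr8:34807353-34810504, coding exon and UTR) was covered by peaks to 75.4% ± 15.3 in Tip60 cKO against 96.6% ± 1.52 in control mice (SD, n = 5). Its ends are set by the control peaks. The longest peak was shorter in every Tip60 cKO mouse at this region alone among the 36 regions of the 9 loci found in all 10 lists, and at 4.62% of such regions genome-wide (longer at 0.101%). This feature was chosen after its values were seen.

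Coverage of the 4 kb TSS window of Dusp4 was 46.4% ± 11.5 in Tip60 cKO against 63.5% ± 12.1 in control mice. Over the gene body, from 2 kb after the start to the annotated end, the rank score was 88.5, 94.4, 85.7, 88.2 and 88.3 in Tip60 cKO replicates 1 to 5. In control replicates 1 to 5 it was 98.6, 97.3, 98.5, 98.3 and 96.6, again without overlap. In all 5 control mice the strongest body peak was the unbroken peak that begins at the start, whereas in 3 Tip60 cKO mice it was a separate peak downstream. With the body taken from the start itself the difference of −8.85 shrank to −3.07.

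At the Dusp4 locus 4 of 19 consensus regions had a peak in more control lists than Tip60 cKO lists by 3 or more, against 8.59% of all consensus regions. The first, from −840 to −197 bases relative to the start (chr8:34806457-34807100), had a peak in 3 control lists and in no Tip60 cKO list. The intronic region printed above (chr8:34813989-34814968) had peaks in all 5 control lists, with rank scores among all regions of 81.8, 78.6, 71, 61 and 36.8, and in Tip60 cKO replicate 1 alone, at 57.6. The others lay at the 3′ end, in a UTR exon (chr8:34819476-34819725, 0 against 3 lists) and just after the gene (chr8:34820143-34820619, 1 against 4 lists). No region at Dusp4 leaned to Tip60 cKO by 3 lists.

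Dusp1, an immediate-early phosphatase gene, needs its start defined first. GENCODE places the 5′ end at chr17:26562128 on the minus strand, 53.656 kb upstream of the RefSeq start at chr17:26508472. A long protein-coding transcript starts there, and a processed transcript of Dusp1 starts 0.629 kb from it. The start of Ergic1, a gene of the secretory pathway on the plus strand, lies close by at chr17:26561489, so values at the GENCODE start describe a shared promoter. At the RefSeq start the rank score was 93.1, 95.1, 98, 92.6 and 89.4 in Tip60 cKO replicates 1 to 5 and 94.1, 86.8, 88, 90.9 and 91.3 in control replicates 1 to 5. The ranges overlapped, and the mean was higher in Tip60 cKO (93.6 ± 3.18 against 90.2 ± 2.9, SD, n = 5). At the GENCODE start it was lower (90.8 ± 4.08 against 92.8 ± 4.58), so the direction for Dusp1 depends on the start used. It depends on the lane as well. The difference at the RefSeq start was 5.73 within lane 7 and −0.111 within lane 8, and at the GENCODE start it was 0.673 and −6.12.

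Fold enrichment at the RefSeq start of Dusp1 was 6.68 ± 0.967 in Tip60 cKO against 6.7 ± 0.666 in control mice, while pileup per 1000000 tags was 0.879 ± 0.16 and 1.15 ± 0.218, which is 23.8% lower in Tip60 cKO. The local background at this peak was at the genome-wide level in all 5 Tip60 cKO libraries and 1.33 ± 0.256 times that level in control libraries (SD, n = 5), and the caller takes this background from the pooled input. The 2 measures therefore differ at this start, and the part of the input in this was not tested. The peak at the RefSeq start belongs to the region with the highest mean rank of the locus over all 10 mice (chr17:26507153-26509766, coding exon and UTR), present in all 10 lists with rank scores among regions of 94.9 to 99.2 in Tip60 cKO against 94.6 to 98 in control mice. Its mean was 97.3 ± 1.58 in Tip60 cKO against 96.1 ± 1.32 in control mice, while the region at the GENCODE start (chr17:26560747-26563114) had 95.9 ± 1.97 and 97.2 ± 1.95, so the order of these regions turned with the genotype, within the spread.

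Dusp5 spans chr19:53529109-53542431 on the plus strand. Its rank score was 92.1, 87.5, 91.4, 93.7 and 84.7 in Tip60 cKO and 88.2, 92.1, 90.4, 85.7 and 86.1 in control replicates 1 to 5, which overlapped nearly in full. The mean difference was 1.4 and turned to lower in Tip60 cKO on the log2 fold enrichment scale. TSS coverage was 32.6% ± 11.7 in Tip60 cKO against 39.1% ± 9.83 in control mice. Although the main peak did not differ beyond this spread, 3 smaller regions of the 11 at the locus leaned to control mice by at least 3 lists. Over all consensus regions the share was 8.59%. They lay, the first 2 beside the start of AC137853.2, from −957 to −645 bases relative to the start (chr19:53528152-53528464, 0 against 3 lists), in the first part of the gene (chr19:53531368-53532215, intron, 1 against 4 lists) and behind the gene (chr19:53543070-53543699, 0 against 3 lists). The strongest region of the locus (chr19:53528467-53530444) lay across the start and was in all 10 lists.

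Dusp6, the cytoplasmic ERK phosphatase, spans chr10:99263231-99267489 on the plus strand. Its strongest peak within 2 kb did not sit on the start but upstream, with summits from −1766 to −1526 bases in Tip60 cKO and from −1735 to −1511 bases in control mice. Fold enrichment in Tip60 cKO replicates 1 to 5 was 6.37, 5.51, 6.57, 7.38 and 7.2. In control replicates 1 to 5 it was 9.95, 7.58, 8.39, 8.42 and 7.55, all above the Tip60 cKO mice. The rank score overlapped at 93.4 ± 3.53 and 96.2 ± 1.89 (SD, n = 5), and its difference of −2.77 was −4.89 within lane 7 and 0.42 within lane 8. Coverage of the window was the same within the spread, at 59.4% ± 11.4 in Tip60 cKO against 58.8% ± 10 in control mice. The upstream region (chr10:99260970-99262973) was present in all 10 lists.

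A further region behind Dusp6 (chr10:99268820-99269754, 5589 to 6523 bases after the start) leaned the other way. It had peaks in all 5 Tip60 cKO lists with rank scores of 73.2, 70.6, 76.8, 66.7 and 71, and in control replicates 3 to 5 at 53.9, 61.4 and 41.6. Every Tip60 cKO mouse was above every control mouse there. The region lies within 2 kb of the starts of the noncoding genes Gm34921 and Gm48089, and was chosen after its values were seen.

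Of the Sprouty genes, Spry2 had the widest acetylation. It spans chr14:105891947-105896819 on the minus strand, and peaks covered 83.6% ± 4.07 of its 4 kb TSS window in control mice, the highest share among the 9 genes. In Tip60 cKO mice they covered 66.3% ± 14.7 (SD, n = 5). The values were 73.6%, 74.1%, 70.5%, 73.4% and 40.1% in Tip60 cKO replicates 1 to 5. In control replicates 1 to 5 they were 87.2%, 84.4%, 85.4%, 76.6% and 84.4%, so that the genotypes did not overlap. Without Tip60 cKO replicate 5, which had the shortest list, the difference of −17.3 percentage points became −10.7, and within lane 7 it was −13. Windows of 1 kb on either side gave −7.81 percentage points.

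Fold enrichment at Spry2 also separated the genotypes, but the strongest peak was not the same peak in every mouse. Its summit lay from −2055 to −139 bases relative to the start in control and from −1975 to 643 bases in Tip60 cKO mice. Fold enrichment was 5.34, 5.95, 7.01, 6.49 and 6.9 in Tip60 cKO and 8.68, 7.31, 7.49, 7.4 and 7.35 in control replicates 1 to 5. The rank score did not separate the genotypes, at 92.3 ± 4.54 against 94.3 ± 1.66, with a difference of −3.41 within lane 7 and 0.028 within lane 8. Over the gene body the rank score was 80, 79.4, 81.9, 83.4 and 82.8 in Tip60 cKO and 93, 92.8, 91.1, 92.9 and 86.5 in control mice, without overlap. In control replicates 2 and 3 the peak behind this value reached into the TSS window, and with the body taken from the start the difference of −9.75 shrank to −0.145. Only 3 consensus regions lay at the locus within 50 kb, all of them in all 10 lists, and the strongest (chr14:105894759-105898209) spanned the start. Peaks covered 66.4% ± 14.9 of it in Tip60 cKO against 85.4% ± 5.17 in control mice. The ends of this region are set by control peaks, as at Dusp4.

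Within 2 kb of its start, Spry1 (chr3:37639947-37644598, plus strand) had a single narrow zone of peaks, which lay after the start. Its rank score was 76.3 to 82.3 in Tip60 cKO against 76.8 to 91.3 in control mice, and coverage was 19.7% ± 5.69 against 21.1% ± 7.87, so that neither differed beyond the spread. The mean rank score difference of −2.02 was −4.67 within lane 7 and 1.96 within lane 8, and it changed sign without control replicate 2. Over all 10 mice the region with the highest mean rank at the locus lay 46882 to 47923 bases after the start (chr3:37686829-37687870), in all 10 lists, but by less than the spread and not in both genotypes. It scored 88.9 ± 6.47 in Tip60 cKO and 87.2 ± 7.35 in control mice, and the region at the start (chr3:37639924-37641203) scored 86.4 ± 2.84 and 89.3 ± 5.65.

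Spry4, on chromosome 18 (38586247 to 38601415, minus strand), had the lowest and least even score of the 9 genes in control mice. The rank score was 84.9, 69.2, 88.9, 80.9 and 84.7 in Tip60 cKO replicates 1 to 5. In control replicates 1 to 5 it was 75.3, 72.2, 0, 78.2 and 74, since control replicate 3 lists no peak in the window. No listed peak means only that the caller's threshold was not reached in that mouse. The 4 control mice with a peak lay within the range of the Tip60 cKO mice, and below all of them but replicate 2. Pileup per 1000000 tags was 0.618 ± 0.165 in Tip60 cKO against 0.476 ± 0.279 in control mice, with the missing peak counted as 0. Over the 4 control mice with a peak it was 0.595 ± 0.0969, and the difference shrank from 0.141 to 0.0223. The rank score difference was 21.8 with that mouse and 6.79 without it. TSS coverage went the other way, with 20.4% ± 13.3 against 24.9% ± 16.4, a difference of −4.44 percentage points that became −10.7 without that control mouse. The strongest region near Spry4 was not at its start but upstream, from −31445 to −29724 bases (38631139 to 38632860 on chromosome 18), in all 10 lists, with rank scores among regions of 97.2 to 99.4 in Tip60 cKO against 91.4 to 99.7 in control mice.

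The Spred genes held the highest scores of the list in control mice. Spred1 (chr2:117121374-117182279, plus strand), whose loss in people causes Legius syndrome, had a fold enrichment of 7.19, 5.95, 6.57, 6.49 and 6 in Tip60 cKO replicates 1 to 5. In control replicates 1 to 5 it was 9.95, 9.14, 7.71, 7.66 and 7.74, without overlap. Pileup per 1000000 tags was 0.846 ± 0.0895 against 1.15 ± 0.164, also without overlap. The rank score was 94.8, 91.9, 93.4, 92.6 and 93.1 in Tip60 cKO and 98.7, 97.9, 93.3, 95.6 and 96.1 in control mice, where control replicate 3 fell among the Tip60 cKO mice. The difference was −3.18, with −3.29 within lane 7 and −3 within lane 8.

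Coverage of the Spred1 TSS window was 41.7% ± 9.98 in Tip60 cKO against 56.1% ± 5.88 in control mice. The steps where all 5 mice had a peak ran from −1550 to 550 bases relative to the start in control and from −450 to 300 bases in Tip60 cKO mice. Along the window in steps of 50 bases, all 5 control mice had a peak at steps adding up to 1700 bases and all 5 Tip60 cKO mice at steps adding up to 800 bases, and within the window no step had more Tip60 cKO than control mice. The strongest region of the locus (chr2:117119361-117122188) was in all 10 lists and was covered to 59.1% ± 14.1 in Tip60 cKO against 79.4% ± 8.33 in control mice. This region was merged from the peaks of both genotypes, so its extent was not set independently of them. A far region 110158 to 110734 bases after the start (chr2:117231532-117232108), behind the gene, had peaks in 1 Tip60 cKO and 4 control lists.

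Spred2 (chr11:19924375-20024026, plus strand) had the highest rank score, at 97.4 ± 2.24 in Tip60 cKO against 98.9 ± 0.444 in control mice (SD, n = 5). The fold enrichment was 10.5, 6.39, 8.55, 7.38 and 7.5 in Tip60 cKO and 9.74, 10.7, 10, 9.91 and 9.02 in control replicates 1 to 5. Only Tip60 cKO replicate 1 reached the control range. The gene is 99.652 kb long and was dotted with peaks, 42.6 ± 15.3 per list in the body in Tip60 cKO against 41.2 ± 8.64 in control mice. The strongest region (chr11:19924294-19926671) spanned the start and was in all 10 lists. Among 65 consensus regions at the locus, 2 leaned to control mice by at least 3 lists, against 8.59% of all consensus regions. They lay directly before the start (chr11:19923752-19924220, from −623 to −155 bases, 1 against 4 lists) and behind the gene (chr11:20027773-20028284, 1 against 4 lists). In the introns 3 of the 65 leaned to Tip60 cKO, against 2.78% of all consensus regions. Each had peaks in Tip60 cKO replicates 1 to 3 and in no control list (chr11:19936590-19937077, chr11:19986731-19987549 and chr11:20007778-20008137). Those 3 mice were all run in lane 7. An intronic region present in all lists (chr11:19944954-19945906) scored 73.2 to 85.5 in Tip60 cKO against 89.2 to 95.2 in control mice, and was named after its values were seen.

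**Figure D3:**
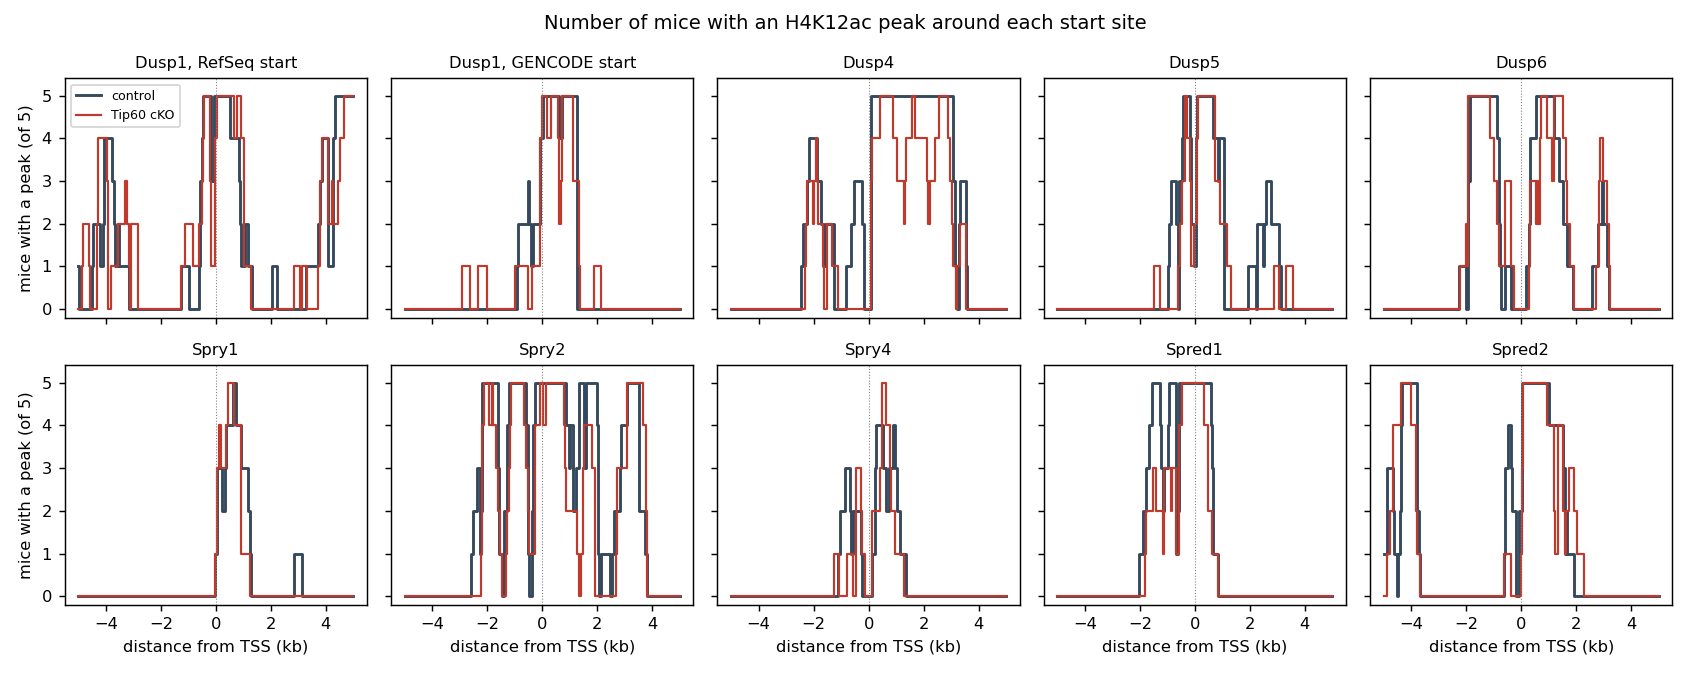
Number of mice with an H4K12ac peak (vertical axis, of 5) in steps of 50 bases from 5 kb before to 5 kb after each start (horizontal axis, distance in kb, positive along transcription), for control (dark) and Tip60 cKO (red). At Dusp4 all 5 control mice have a peak without a break to about 3 kb, and upstream of Spred1 fewer Tip60 cKO than control mice have one.

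Coverage of the TSS window, the share of its 4 kb within peaks, moves with the length of the list. Across the 10 libraries its correlation with the number of peaks in the list ran from r = 0.123 (Spry1) to r = 0.866 (Dusp4), given without a test because the libraries share their depth. It was lower in Tip60 cKO at 8 of the 9 genes and 0.6 percentage points higher at Dusp6, a sign that changed in 8 of 16 alternative settings, among them the same number of peaks in every list. With the RefSeq start, Dusp1 was higher as well (39.9% ± 13.1 against 36.9% ± 10.6). The median over the 9 genes was −5.65 percentage points, against −4.01 over all genes, of which 81% were lower. Without overlap it was lower at Spry2 alone, and at 5.23% of all genes (0.157% higher). The mean over the 9 genes was 40% in Tip60 cKO against 48% in control mice, a difference of −7.98 percentage points (−5.85 within lane 7 and −11.2 within lane 8). It was −5.19 without Tip60 cKO replicate 5 and −9.36 with the same number of peaks in every list.

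**Figure D4:**
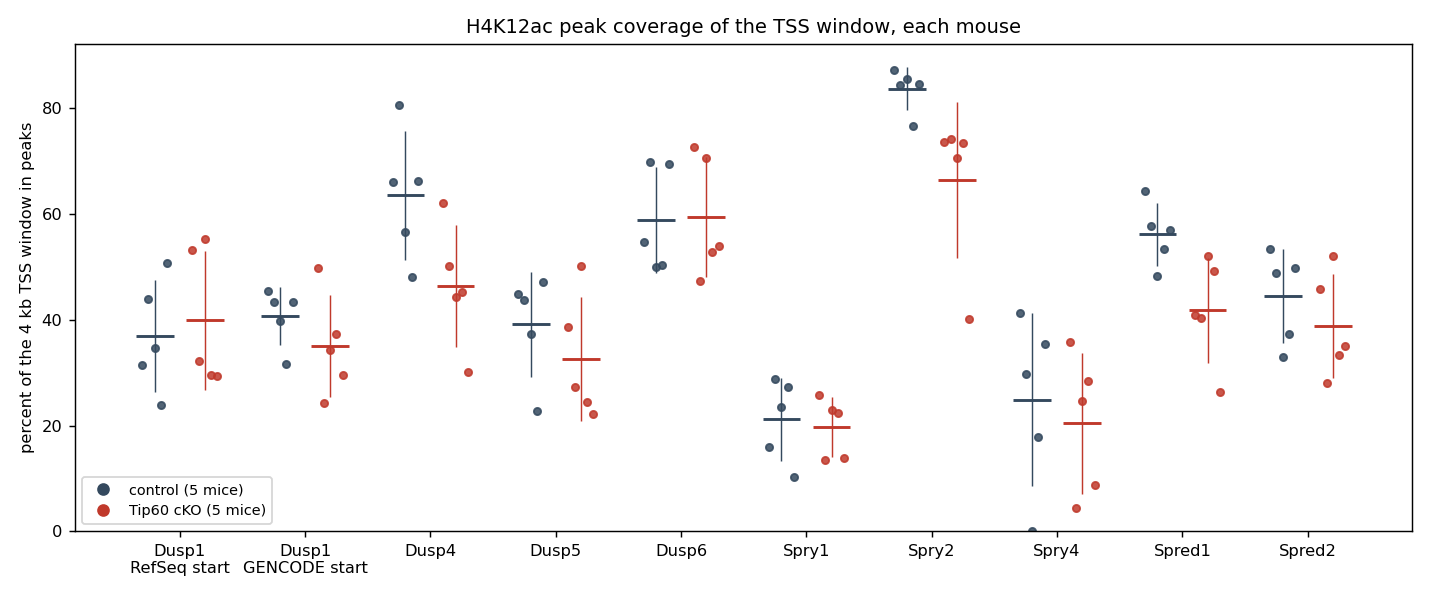
Percent of the 4 kb TSS window covered by peaks (vertical axis, from 0) at each gene in 5 control (dark) and 5 Tip60 cKO mice (red), with means and SD. Spry2 is the gene without overlap, and the lowest Tip60 cKO point there is replicate 5 at 40.1%.

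In gene bodies, 7 of the 9 genes had a peak in at least 2 lists, as Spry1 and Spry4 had a body peak in 1 list each. The body rank score was lower without overlap at 2 genes, Dusp4 and Spry2, against 1.49% of the 13579 genes with a body peak in at least 2 lists (higher, 1.4%). At Dusp4 the values of all 5 control mice and of Tip60 cKO replicates 1 and 2 come from peaks that reach into the TSS window. At Spry2 those of control replicates 2 and 3 do. With the body taken from the start the differences shrank to −3.07 at Dusp4 and −0.145 at Spry2. Body coverage overlapped at all 9 genes, against 3.81% of genes lower and 0.0516% higher without overlap. Mean body coverage was 9.9% in Tip60 cKO against 12.1% in control mice, and the difference of −2.18 percentage points was 0.123 within lane 7 and −5.62 within lane 8. It shrank to −0.932 without Tip60 cKO replicate 5.

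Flank coverage, from 2 kb to 50 kb upstream and to 50 kb behind the gene, was lower in mean at all 9 genes and overlapped at all of them. Genome-wide, 85.3% of genes were lower, 5.32% without overlap (0.0734% higher). The median difference was −0.742 percentage points over the 9 genes and −0.524 over all genes. The mean over the 9 genes was 3.69% against 4.55%, a difference of −0.853 percentage points (−0.411 within lane 7 and −1.52 within lane 8). It was −0.435 without Tip60 cKO replicate 5, −0.566 without control replicate 2 and −0.413 with the same number of peaks in every list.

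Bodies and flanks of the 9 genes held 162 consensus regions, of which 36 (22.2%) were in all 10 lists, against 16.4% of all 144701. Of the 162, 30 overlapped another protein-coding gene, 21 of them at Dusp1, whose GENCODE flank reaches into Ergic1. Peaks in at least 3 more control lists were found at 12 regions and in at least 3 more Tip60 cKO lists at 4, against 8.59% and 2.78% of all regions. By limma over all consensus regions, 0.475% were lower and 0.0864% higher in Tip60 cKO at an adjusted p below 0.05. Of the 162, 1 was called, with all 5 Tip60 cKO mice higher. It lies within Ergic1 (chr17:26581872-26582688), beside Gm22420, and had peaks in 5 Tip60 cKO lists, with rank scores of 67.8, 70.6, 49.2, 61.7 and 81.4, and in none of the control lists. It lies over 73 kb upstream of the RefSeq start of Dusp1, outside the 50 kb flank of that model. In rank score 1 of the 162 regions was lower and 3 were higher in Tip60 cKO without overlap, against 1.34% and 0.783% of all consensus regions. They are the intronic region of Spred2, the region behind Dusp6, the called region in Ergic1 and the next one, all but the called region named after their values were seen.

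Close to it, still within Ergic1, chr17:26576408-26577391 scored 80.9 to 96.1 in Tip60 cKO against 48 to 78.3 in control mice, without overlap. The adjoining region chr17:26575443-26576292 had peaks in 2 Tip60 cKO and in all 5 control lists. All 3 count to Dusp1 through its GENCODE start and lie more than 50 kb upstream of the RefSeq start. The remaining region that leaned to control mice lay behind Spry1 (chr3:37656186-37656670, 16239 to 16723 bases after its start, 0 against 3 lists).

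**Figure D5:**
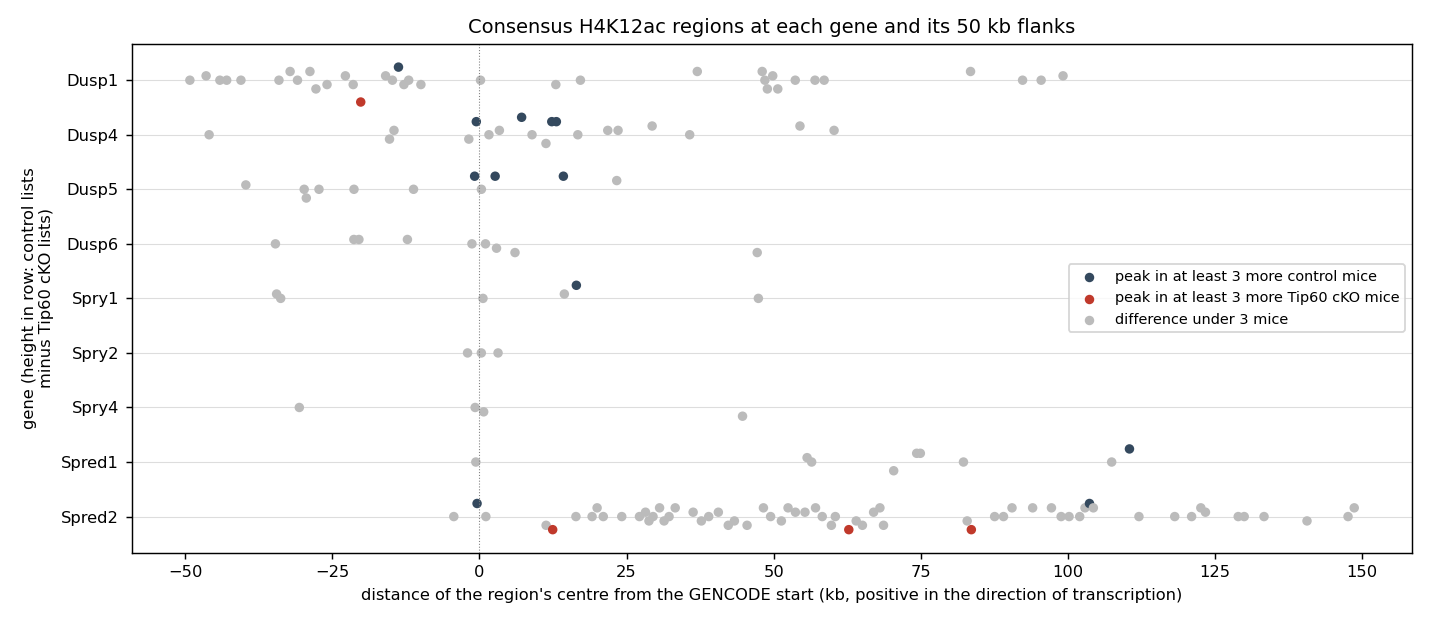
Consensus regions at each gene by the distance of their centre from the GENCODE start (horizontal axis, kb). The height within a row is the number of control lists minus Tip60 cKO lists with a peak, dark where control mice lead by at least 3 and red where Tip60 cKO mice do. Dark points cluster at Dusp4 and Dusp5, and red points lie in the introns of Spred2 and upstream of the GENCODE start of Dusp1.

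The rest of the pathway was read with the same rank score at the start, over lists of 58 other genes in all, of which 57 were found. The mean was lower in Tip60 cKO at 34 and higher at 20 of the 54 with a TSS peak in at least 2 lists, with a median difference of −1.11, and limma called 0 of them. At an unadjusted p below 0.05 there were 6 (Errfi1, Cbl, Hras, Nras, Braf and Mapk10), against 11.8% of all genes tested. Here too the lists were drawn up with earlier results known.

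Of 6 further MAPK phosphatases, 4 had peaks, 3 with a lower mean. Dusp7, an ERK phosphatase of the cytoplasm, had 93 ± 7 in Tip60 cKO against 96.6 ± 4.2 in control mice, and Dusp16, a JNK phosphatase, 80.5 ± 7.3 against 78 ± 3.7. Spred3, the third Spred gene, had 83.3 ± 5.9 against 83.8 ± 5.5. Among 10 other inhibitors at the receptor or at RAS the mean was lower at 7 and higher at 3, with a median of −2.61. Il17rd (Sef), which holds back ERK signalling, had 46.7 ± 42.7 against 76.1 ± 8.1 and lacked a peak in 2 Tip60 cKO lists. Rasa1, a GTPase-activating protein of RAS, had 92.1 ± 7.5 against 89.6 ± 5.3 (SD, n = 5 throughout).

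The ERK cascade itself had a lower mean at 12 and a higher mean at 5 of 17 genes, with a median of −1.31. Nras, a RAS GTPase, had 31.7 ± 43.6 in Tip60 cKO, with peaks in 2 lists, against 76.4 ± 3.8 in control mice. Braf, the main RAF kinase of neurons, had 98.1 ± 1.5 against 93.4 ± 2.8. Hras was the one gene of this list without overlap, at 80.2 ± 6.6 against 95.3 ± 2.8, which makes 1 of 17 where 1.62% of all genes were lower without overlap. It was named after its values were seen. Among 12 nuclear kinases and factors under ERK, 11 had peaks, 7 with a lower and 4 with a higher mean, and the median was −1.16. Elk3, an ETS factor, had 13.7 ± 30.7 against 46.1 ± 42.2 with peaks in 1 and 3 lists, and Rps6ka1, which encodes the kinase RSK1, 83.5 ± 7 against 81.9 ± 4.5.

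The JNK and p38 branch had a lower mean at 4 and a higher mean at 7 of 11 genes and a median of 3.18. At 2 of its genes, Mapk10 and Mapk13, all Tip60 cKO mice were higher than all control mice, as at 1.93% of all genes tested, and Mapk10 was named after its values were seen. Mapk10, the neuronal JNK3, had 90.9 ± 3 in Tip60 cKO against 79.6 ± 4.5 in control mice, and Mapk13, a p38 kinase, 77 ± 7.7 against 42.6 ± 38.9 with peaks in 3 control lists. Mapk8, which encodes JNK1, had 83.3 ± 6.4 against 90.6 ± 5.7. None of the genes of this branch was called by limma, and Mapk10 alone had an unadjusted p below 0.05.

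How closely the 9 genes moved together over the 10 mice differed between the measures. Across the 36 pairs of genes the median correlation of the rank score was r = 0.129, between −0.532 and 0.698, and positive in 22 pairs. For TSS coverage, which shares the length of each list, it was 0.542 and positive in all 36 pairs. These values describe 10 libraries that differ in depth and carry no test. By the GENCODE starts, the largest differences in rank score were at Spry4, Spred1 and Dusp4. At its RefSeq start Dusp1 differed by 3.39, more than Spred1 and Dusp4. A search covered 12588 protein-coding genes with a peak in at least 5 lists. It looked for the genes with the score most similar over the 10 libraries to that of Spry4, Spred1 and Dusp4. They were Itprid1 (r = 0.987), Nat8f4 (0.98) and Fopnl (0.979) for Spry4, Taf5 (0.928), Trafd1 (0.926) and Dpf1 (0.912) for Spred1, and Zfp365 (0.937), Pik3cb (0.917) and Pwwp2b (0.915) for Dusp4. The 3 genes most like Spry4 also scored 0 in control replicate 3, and without that mouse their correlations with Spry4 were 0.776, 0.643 and 0.631 (n = 9).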

How the data were processed

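H4K12ac ChIP-Seq was measured in 10 libraries, 5 Tip60 cKO and 5 control, each from a separate mouse, so p-values read the spread between mice. All libraries of a genotype share the same pooled input. A difference between the inputs therefore falls together with genotype and is not part of this spread. The authors mapped the reads to mm10 (GRCm38) with STAR and called peaks in each library against the pooled input of its genotype with MACS 2.1.0.20140616. The deposited lists give for each peak the pileup at its summit (signal, in fragments), the fold enrichment (ratio over the input background) and −log10 p-value and −log10 q-value, as the authors' caller wrote them, down to a q-value of 0.1.

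From these lists each gene of GENCODE M21 received a TSS rank score, a TSS coverage, a body score and coverage, and a flank coverage. Consensus regions were merged peaks with a peak in at least 2 lists. Scores of all genes with a peak in at least 2 lists were fitted with limma 3.58.1 (R 4.3.3), Benjamini-Hochberg adjusted p below 0.05, after the fit was tested on simulated data. Scores are not counts, so no count model was used. Pileup was scaled to 1000000 of the tags that entered peak calling. Python 3.11.15, numpy 2.4.6, pandas 2.3.3 and matplotlib 3.10.9 were used otherwise.

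The members and lists were chosen with earlier results of these data known. Named were all 9 genes, regions whose number of lists with a peak differed by at least 3 and the strongest region of each locus. Also named were the gene with the lowest and highest difference of each pathway list, and for the 3 genes with the largest difference the 3 most similar genes. These 3 genes were taken with the GENCODE start of Dusp1. Outside this rule, Errfi1, Cbl, Hras, Mapk10 and 3 regions without overlap of the genotypes were named after their values were seen. The RefSeq model of Dusp1 and the Spry4 values without the control library that lists no peak, also for the most similar genes, were added after the data were seen. The input libraries, which have no peak list, were not analysed here beyond their use by the peak caller. Peaks come from 13 to 55 fragments at the summits of the 9 genes, and their depth limits which peaks pass the threshold. Alternatives were another ranking, q-value, window, equal lists, all transcripts, the lanes, a replicate block and leaving out each library.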

Additional observations from a re-analysis of the deposited data

Results flagged for a closer look

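Among 78 groups of 5 mice that were examined, 7 held a mouse whose gap to the nearest of the others, divided by the range of the group, was above Dixon's critical value of 0.71. For normally spread values, chance alone gives about 1 such group in 20. This rate does not hold for groups in which mice without a peak count as 0. In TSS coverage of Spry2, Tip60 cKO replicate 5 stood at 40.1% while the others lay between 70.5% and 74.1%, and control replicate 4 stood at 76.6% while the others lay between 84.4% and 87.2%. In the TSS rank score of Spry4, control replicate 3 was at 0, as its list held no peak there, while the others lay between 72.2 and 78.2.

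The remaining 4 are single peaks in gene bodies where the other 4 mice of the genotype had none. Body coverage of Spry1 was 11.4% in control replicate 3, and that of Spry4 was 2.005% in Tip60 cKO replicate 1. With the RefSeq model, body coverage of Dusp1 was 5.56% in Tip60 cKO replicate 2 and 24% in control replicate 1.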

How the results depend on the processing

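The differences over the 9 genes in TSS rank score, TSS coverage and flank coverage stayed lower in Tip60 cKO in every alternative that was run. Leaving out each mouse gave −2.57 to −1.52 for the rank score, −10.3 to −5.19 for TSS coverage, −2.87 to −0.932 for body coverage and −1.16 to −0.435 for flank coverage. Body coverage was −5.62 in lane 8 alone and 0.123 in lane 7 alone. Among single genes the sign changed in 8 of 163 alternatives for the rank score (at 5 genes), in 14 of 145 for TSS coverage (at 3) and in 12 of 136 for the body score (at 5). It changed in none for the rank score and TSS coverage at Dusp4, Spred1 and Spred2, lower in Tip60 cKO in both, and at Spry4, whose rank score stayed higher (6.7 to 31.8) and whose coverage stayed lower.

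Of all genes, limma called 51 at the TSS. The count was 618 on the log2 fold enrichment scale, 86 with a robust prior, 232 in lane 7 alone and 931 in lane 8 alone, with fewer mice in each, and 56 to 97 when 1 mouse was left out. It was 97, 82, 85 and 83 without Tip60 cKO replicates 1, 2, 4 and 5. Groups without overlap numbered 770. Of the consensus regions 812 were called, 317 with a robust prior, 3791 in lane 7 alone, 5001 in lane 8 alone and 916 to 1401 when 1 mouse was left out, the highest without control replicate 4. The cause of these shifts was not tested. None of the 9 genes was called in any of these fits. At an unadjusted p below 0.05 there were 6 of them on the log2 fold enrichment scale, 1 (Dusp6) with 1 kb windows and 1 (Spred1) without control replicate 3.

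The replicate numbers are shared by the genotypes, but the mice with the same number did not deviate together (correlations of 0.0552, 0.0267, −0.0277, 0.0514 and −0.0375). With the replicate number as a block 35 genes and 261 regions were called. Peak calls depend on depth, so a peak missing from the shallow Tip60 cKO replicate 5 does not show that the mark was absent.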
